A study of Rattus norvegicus with 78 samples.

Results

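Sperm from the cauda epididymis of Fischer 344 rats are described here by the transcripts they carried. The rats were given corn oil, the vehicle of the study, for 3 months. The group was taken by array title, as the corn oil controls numbered 1 to 20 with no recovery period, and it holds 20 of the 78 arrays of the series. The study also has 20 arrays of rats given 1,2-dibromo-3-chloropropane (DBCP), a toxicant of male germ cells, at 5 mg/kg/day for 3 months. A further 19 corn oil arrays and 19 DBCP arrays came after a recovery period of a length not given in the sources used here. The labels call the arrays biological replicates without naming animals, and no source used here gives the age, so p-values measure only the spread between these samples, which may be technical. The labels of these arrays give sperm as the tissue, whereas the series is titled as one of testis transcripts.

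Mature sperm make almost no new RNA. Their transcripts are mostly what spermatids left behind when protamines replaced the histones and transition proteins of the nucleus and the tail was built from dense fibres, a fibrous sheath and a mitochondrial sheath. Sperm let out of a punctured cauda can come with leukocytes, blood and epithelial cells of the duct, and the protocol used ammonium chloride briefly to lyse red cells. In such bulk samples more cells of a type and more RNA per cell cannot be told apart.

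Each of the 29214 probe sets had a log2 signal on every array. The array medians lay between 6.65 and 6.75, and the correlation between 2 arrays over all probe sets lay between 0.937 and 0.988. Replicates 18 and 12 were farthest from the median profile. Over the 20 arrays the probe set means had a median of 6.71, a 75th percentile of 7.30 and a 95th percentile of 8.77. A gene was represented by its brightest probe set, which gave 14506 named genes. Signal depends on the probes as well as on the RNA, so a rank is one of signal and not of molecules, and ranks were given no test.

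Structural genes of the tail and of the packed nucleus were among the brightest named transcripts of control sperm. Smcp, which encodes a cysteine-rich protein of the mitochondrial sheath, had a log2 signal from 13.92 to 14.29 with a median of 14.18 (mean 14.15 ± 0.10 SD, n = 20). Odf1, the main protein of the outer dense fibres, ran from 13.89 to 14.22 with a median of 14.14 (mean 14.10 ± 0.09 SD, n = 20). These genes held ranks 1 and 2 on all 20 arrays, with Smcp above Odf1 on 17 of them, and their mean difference of 0.05 did not exceed its own SD.

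Reep6, a membrane protein that shapes the endoplasmic reticulum, ranked next and spread further, from 12.52 to 13.62 with a median of 13.51 (mean 13.37 ± 0.31 SD, n = 20). Prm1, the first protamine, ran from 12.29 to 13.43 with a median of 13.02 (mean 12.99 ± 0.27 SD, n = 20). Oaz3, the antizyme of haploid germ cells, which restrains polyamine synthesis, ran from 11.88 to 13.03 with a median of 12.73 (mean 12.65 ± 0.30 SD, n = 20). Odf1 lay above Reep6 by 0.74 on average and on 20 of 20 arrays, Reep6 above Prm1 by 0.37 on 19, and Prm1 above Oaz3 by 0.34 on 20. These 3 steps exceeded the SD of the paired difference. None of the other neighbours among the first 30 did, so the order of neighbours below rank 5 is not resolved by this measure. Genes further apart in rank were not compared.

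The rest of the first 30 mixed germ cell genes with genes that every cell uses. Haploid germ cell genes included Iqcf3 at 12.23 ± 0.45, Gsg1 at 11.93 ± 0.42, Tcp11 at 11.67 ± 0.52, Azin2 at 11.60 ± 0.44 and Spata18 at 11.53 ± 0.41 (mean log2 signal ± SD, n = 20, as for the levels that follow). Azin2 is an antizyme inhibitor and thus the counterpart of Oaz3. The kinase Pim1 stood at 11.63 ± 0.49 and Tpgs2, a subunit of the tubulin polyglutamylase, at 11.44 ± 0.41. Serpina16 stood at 12.29 ± 0.51, Prr30 at 11.96 ± 0.47, C7h12orf54 at 11.89 ± 0.45, Nupr2 at 11.51 ± 0.37 and Wfdc10a at 11.76 ± 0.48.

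Among genes of general use, the ferritin light chain Ftl1 stood at 12.49 ± 0.25, Actb at 12.32 ± 0.20, Pebp1 at 12.30 ± 0.34, Gapdh at 12.25 ± 0.12 and Eef1a1 at 11.87 ± 0.21. The ribosomal protein genes Rpl41 and Rps29 stood at 11.94 ± 0.33 and 11.65 ± 0.30, the chaperone Dnajb4 at 11.90 ± 0.44, Gstm1 at 11.78 ± 0.41, Tpi1l1 at 11.86 ± 0.40, the metallothionein Mt2A at 11.50 ± 0.40 and B2m, the light chain of class I histocompatibility molecules, at 11.39 ± 0.35. Hbb, the beta chain of haemoglobin, ranked 13 at 11.94 ± 0.51. Gapdh has 16 probe sets and Ftl1 has 6, and these, the ribosomal protein genes, Eef1a1, Tpi1l1 and Hbb have close copies or pseudogenes, so their signal may not belong to the named locus alone. All 30 genes were among the 100 brightest on 20 of 20 arrays.

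**Figure D1:**
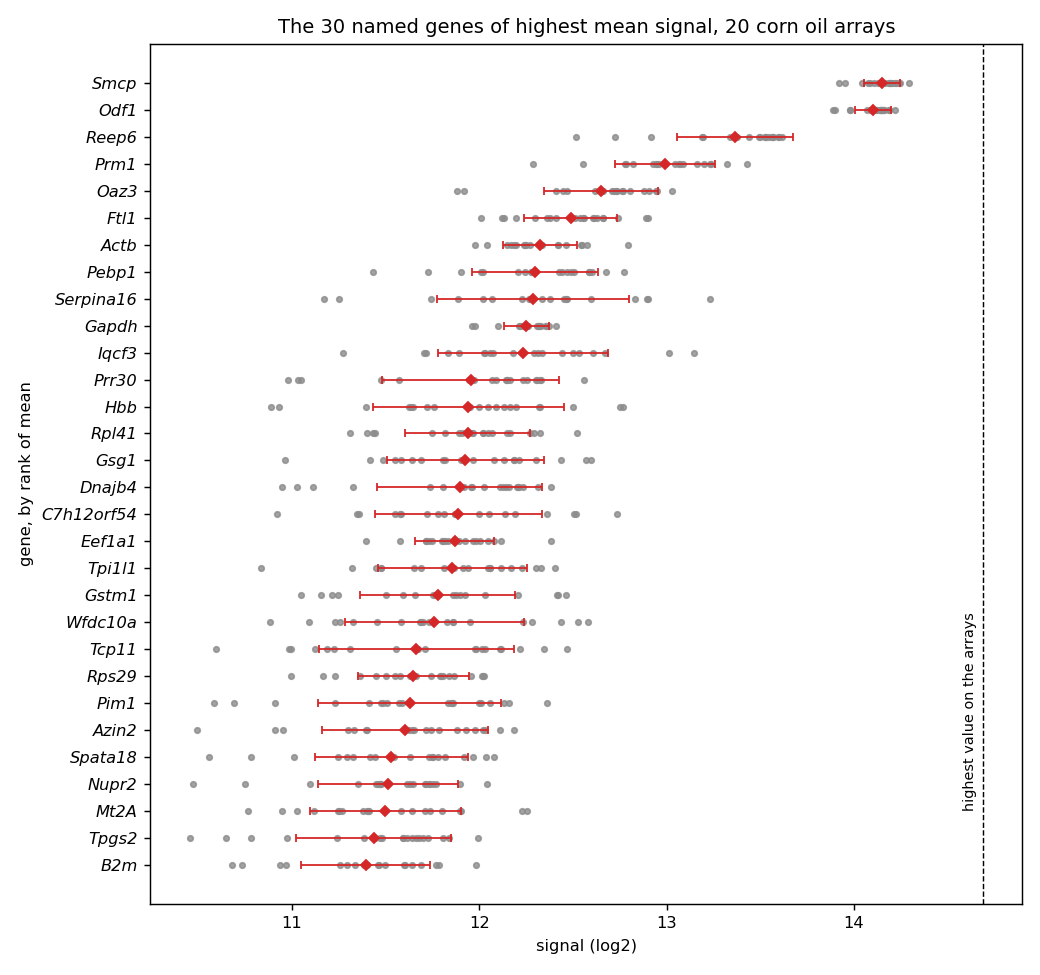
Log2 signal of the 30 named genes of highest mean on the 20 corn oil arrays (x axis), with genes by rank from top to bottom (y axis). Grey points are arrays, red diamonds and bars are the mean and 1 SD, and the dashed line is the highest value on these arrays, 14.69; Smcp and Odf1 stand apart at 14.15 and 14.10.

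Near the top of the scale the spread between arrays was small. The highest value on any of the 20 arrays was 14.69, and no named gene had a mean within 0.5 log2 units of it. The 9 probe sets that did were 7 without a gene name here and 2 with several symbols, and their SDs ran from 0.04 to 0.17. Smcp and Odf1 lay 0.54 and 0.59 below the highest value, the only named genes among the 24 probe sets within 1 log2 unit, and Reep6 lay 1.32 below it. Of the 100 brightest probe sets, 27 had 1 gene symbol, 70 had no name here and 3 had several.

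The median SD of named genes was 0.16 at mean levels from 6 to 7, 0.28 from 8 to 9, 0.42 from 10 to 11 and 0.41 from 11 to 12. It was 0.29 for the 8 genes from 12 to 13, and Smcp and Odf1, the 2 genes above 14, had SDs of 0.10 and 0.09. Whether these probe sets were saturated was not tested.

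**Figure D2:**
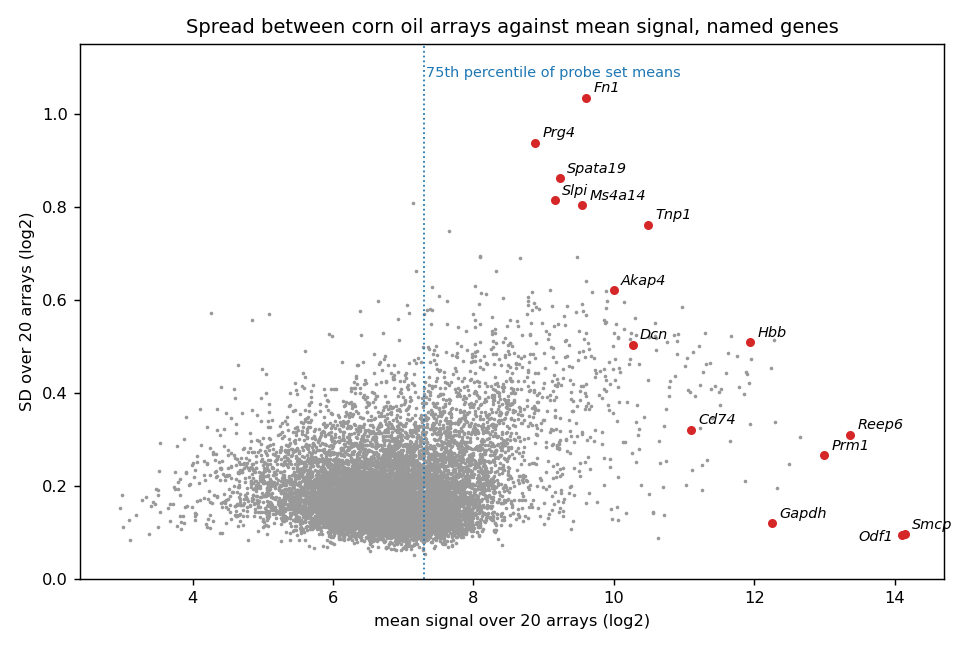
SD over the 20 corn oil arrays against mean log2 signal for 14506 named genes, 1 point per gene, with some genes of the text labelled and the 75th percentile of probe set means, 7.30, as a dotted line. Smcp and Odf1 lie at the far right with SDs of 0.10 and 0.09, and Fn1 has the largest SD, 1.03.

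Much of the top of the ranking was shared with the sperm arrays of the other groups. Of the 100 brightest named genes, 93 were also among the 100 brightest of the 20 DBCP arrays. The count was 85 for the 19 corn oil arrays after recovery and 86 for the 19 DBCP arrays after recovery. Smcp and Odf1 were the first 2 genes in every group, with Odf1 ahead in both recovery groups.

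Genes of the spermatid nucleus and of sperm metabolism stood high in control sperm. Levels were read through 20 gene lists, of which 436 of 527 entries were measured. The list of spermatid chromatin genes had 12 measured members with a median of 8.20, against 6.71 over all probe sets, and 9 were above the 75th percentile. Beside Prm1, its brightest members were the transition proteins Tnp2 at 11.21 ± 0.50 and Tnp1 at 10.48 ± 0.76, which hold the nucleus between histones and protamines. Here and below, members outside the 3 brightest of a list were named after their values were seen, as was Prm2, the other main protamine, at 9.56 ± 0.58.

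The list of sperm-type energy metabolism had 15 measured members with a median of 8.39. It was led by the triosephosphate isomerase Tpi1 at 11.32 ± 0.46, the sperm glyceraldehyde-phosphate dehydrogenase Gapdhs at 10.86 ± 0.52 and the hexokinase Hk1 at 10.80 ± 0.43. The sperm tail list had 23 measured members with a median of 7.30, and 6 of them were among the 100 brightest genes. Its members ran from Rsph1 of the radial spokes at 5.80 to Smcp at 14.15.

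Acrosome and egg-binding genes had a median of 7.54 over 19 members and were led by Crisp2 at 10.90 ± 0.51, Spa17 at 9.46 ± 0.57 and Zpbp at 8.43 ± 0.41. Izumo1, the sperm protein that binds the egg receptor, lay at 5.20 ± 0.26, below the median of all probe sets. Spermatid regulators had a median of 7.86 over 25 members, led by Spata3 at 11.01 ± 0.46, Spata6 of the head-tail coupling apparatus at 10.02 ± 0.55 and the heat shock protein gene Dnajb3 at 9.89 ± 0.58. Ubiquitin and ubiquilin genes had a median of 7.83 over 13 members, with Ubqlnl at 10.91 ± 0.53 and the conjugating enzymes Ube2d2 and Ube2n at 10.79 ± 0.41 and 10.79 ± 0.39. Channels and motility signalling had a median of 7.33 over 12 members, with the sperm sodium pump Atp1a4 at 8.02 ± 0.49, the calmodulin gene Calm3 at 7.94 ± 0.17 and the anion transporter Slc26a8 at 7.90 ± 0.24.

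Meiotic genes were low. Their 17 measured members had a median of 6.34, and 2 were above the 75th percentile. Sycp3, a core protein of the synaptonemal complex, lay at 4.72 ± 0.12. The brightest members were Mael, of the piRNA pathway, at 7.89 ± 0.53, the cohesin subunit Stag3 at 7.79 ± 0.23 and the cyclin Ccna1 at 7.12 ± 0.11.

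Genes of translation were bright. The 67 measured cytosolic ribosomal protein genes had a median of 9.07 and 63 were above the 75th percentile, led by Rpl41, Rps29 and Rpl32 at 11.94, 11.65 and 11.32. The 48 nuclear genes of the respiratory chain and ATP synthase had a median of 7.21, led by Cox8a at 10.74 ± 0.25, Cycs at 9.26 ± 0.22 and Cox6c at 8.86 ± 0.25. None of the 13 mitochondrial genome entries was measured under a gene name here.

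Leukocyte genes stood above the middle of the scale in control sperm. Their 34 measured members had a median of 7.85 and 22 were above the 75th percentile. Cd74, the invariant chain of class II histocompatibility molecules, ranked 45 and ran from 10.44 to 11.83 with a median of 11.12 (mean 11.10 ± 0.32 SD, n = 20). Lyz2, the lysozyme of macrophages and granulocytes, stood at 10.23 ± 0.51, the T cell chemokine Ccl5 at 9.37 ± 0.20 and the pan-leukocyte marker Ptprc at 8.30 ± 0.31. The neutrophil genes S100a8 and S100a9 lay at 4.55 and 5.95, below the median of all probe sets.

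Erythrocyte genes were spread widely. Hbb ran from 10.89 to 12.77 with a median of 12.02, Hbb-b1 stood at 10.76 ± 0.51 and Alas2, the first enzyme of haem synthesis in red cells, at 8.50 ± 0.46. The list median over 14 members was 7.24, and Ahsp, a haemoglobin chaperone, lay at 5.26. The 20 measured stromal, smooth muscle and endothelial genes had a median of 6.96, with Dcn at 10.27 ± 0.50, Vim at 9.91 ± 0.37 and Fn1 at 9.61 ± 1.03. Lum, which connective tissue makes with Dcn, lay at 4.38 ± 0.25.

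Most epididymal genes of the lists were near the middle of the scale. The 26 measured principal cell genes had a median of 6.85, led by Cd52 at 11.30 ± 0.53, the cholesterol carrier Npc2 at 11.08 ± 0.40 and Adam7 at 8.53 ± 0.56. Cd52 is also made by leukocytes. The 14 basal and clear cell genes had a median of 7.10, led by the clear cell factor Foxi1 at 8.42 ± 0.51, the carbonic anhydrase Car2 at 8.01 ± 0.22 and the aquaporin Aqp3 at 7.42 ± 0.13. Wfdc10a at 11.76 and the beta-defensin Defb43 at 9.48 were outside both lists, so these medians do not cover them.

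Genes of the somatic cells of the testis were low. None of 12 Sertoli cell genes was above the 75th percentile, with the highest, Inhbb, Rhox5 and Inha, at 7.24, 7.23 and 6.97. None of 7 Leydig cell genes was, with Cyp17a1, Cyp11a1 and Insl3 at 6.85, 6.83 and 6.82. A list of 36 genes of liver, pancreas and other organs had a median of 6.50 and ran from 5.29 to 7.48, with 2 above the 75th percentile, Cela1 at 7.48 and Ins2 at 7.42. The immediate early genes had a median of 7.25 over 22 members, led by Dusp1 at 9.14 ± 0.48, Egr1 at 8.87 ± 0.40 and Zfp36 at 8.78 ± 0.45.

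**Figure D3:**
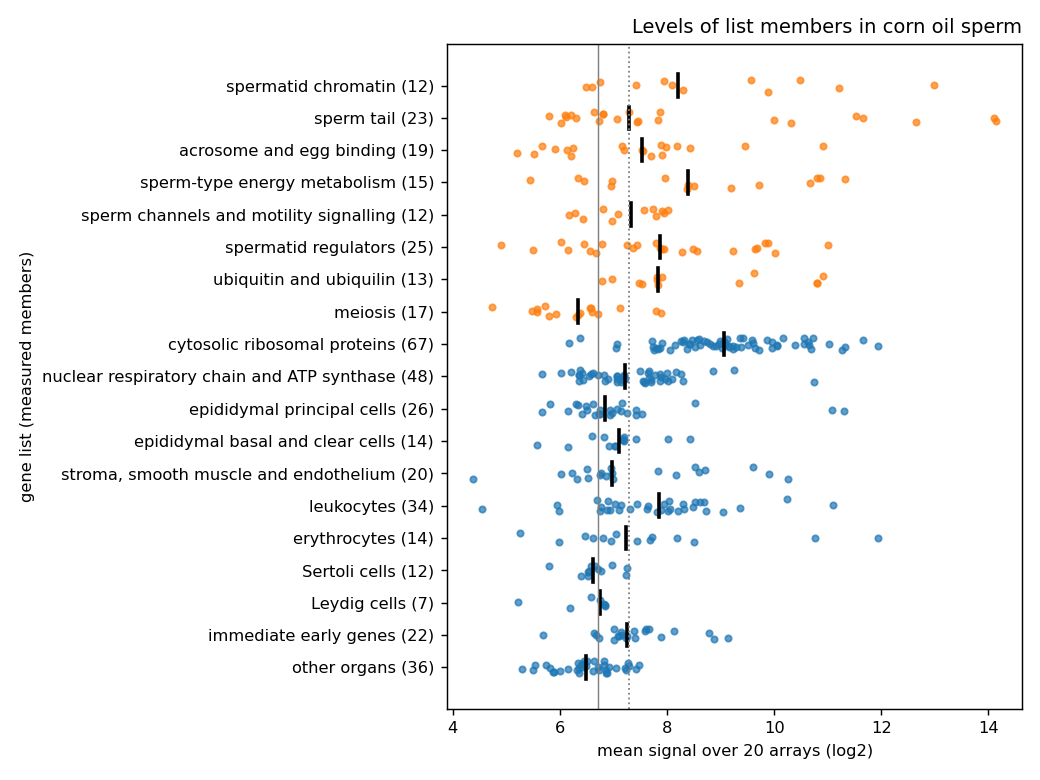
Mean log2 signal over the 20 corn oil arrays (x axis) of the measured members of each gene list (y axis), with germ cell lists in orange, other lists in blue and list medians as black ticks. The solid grey line is the median of all probe set means, 6.71, and the dotted line their 75th percentile, 7.30; no Sertoli or Leydig cell gene lies to the right of the dotted line.

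The genes that differed most between control arrays included matrix and inflammatory genes and spermatid genes. Among the 3569 named genes above the 75th percentile the median SD was 0.19, and 121 genes had an SD over 0.5. Fn1, encoding the matrix protein fibronectin, ran from 7.27 to 11.75 with a median of 9.59. Prg4, encoding the lubricating proteoglycan lubricin, ran from 6.98 to 10.93 with a median of 8.92. Slpi, an inhibitor of leukocyte proteases, ran from 7.83 to 11.37, the chemokine Ccl24 from 7.06 to 9.94 and the mast cell protease Mcpt1l1 from 6.85 to 10.04.

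On the germ cell side, Spata19, a sperm mitochondrial protein, ran from 7.47 to 10.77 with a median of 9.20. Ms4a14, of the MS4A membrane protein family, ran from 8.06 to 10.96 with a median of 9.59, and Tnp1 from 8.90 to 11.81 with a median of 10.36. These 3 genes were lowest on replicate 12, and Spata19, Ms4a14 and Tnp1 were each highest on replicate 9. The adaptor Stap1 ran from 7.00 to 9.76 and the beta-defensin Defb43 from 8.24 to 10.96. The steadiest genes above the 75th percentile were Nrbf2 with an SD of 0.05 and Dpm2, Socs6, Kctd10 and Foxj1 with SDs of 0.07 each, at means between 7.31 and 7.69.

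Because Tnp1, Spata19 and Ms4a14 varied most among germ cell genes, the stretch around their annotated starts is shown, with that of Akap4, the reference gene for sperm used below. Each is 300 bases, from 250 before to 50 after the start, from RefSeq on the GRCr8 build, written 5′ to 3′ on the strand of the gene. Capitals mark TGACGTCA, the full cAMP response element, which reads the same on both strands, and TATAAA, the TATA box, on either strand. Tnp1 lies on the minus strand at chr9:82044229-82044528, Spata19 on the plus strand at chr8:34073102-34073401, Ms4a14 on the minus strand at chr1:217389790-217390089 and Akap4 on the minus strand at chrX:18117500-18117799.
Tnp1: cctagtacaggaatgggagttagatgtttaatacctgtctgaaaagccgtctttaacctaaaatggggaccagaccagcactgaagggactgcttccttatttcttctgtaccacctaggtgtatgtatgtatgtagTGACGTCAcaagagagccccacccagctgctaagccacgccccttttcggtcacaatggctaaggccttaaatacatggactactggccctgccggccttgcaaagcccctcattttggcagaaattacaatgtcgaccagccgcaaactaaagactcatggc
Spata19: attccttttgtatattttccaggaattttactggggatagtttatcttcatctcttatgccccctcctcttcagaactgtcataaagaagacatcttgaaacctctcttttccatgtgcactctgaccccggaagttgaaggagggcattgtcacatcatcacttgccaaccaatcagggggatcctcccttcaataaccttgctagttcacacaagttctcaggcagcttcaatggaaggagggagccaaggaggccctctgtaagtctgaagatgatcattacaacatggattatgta
Ms4a14: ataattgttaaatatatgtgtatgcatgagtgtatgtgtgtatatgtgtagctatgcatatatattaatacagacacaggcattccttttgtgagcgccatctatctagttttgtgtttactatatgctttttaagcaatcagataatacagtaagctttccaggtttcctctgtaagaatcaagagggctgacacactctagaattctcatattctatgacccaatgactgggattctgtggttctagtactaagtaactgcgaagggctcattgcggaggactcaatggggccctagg
Akap4: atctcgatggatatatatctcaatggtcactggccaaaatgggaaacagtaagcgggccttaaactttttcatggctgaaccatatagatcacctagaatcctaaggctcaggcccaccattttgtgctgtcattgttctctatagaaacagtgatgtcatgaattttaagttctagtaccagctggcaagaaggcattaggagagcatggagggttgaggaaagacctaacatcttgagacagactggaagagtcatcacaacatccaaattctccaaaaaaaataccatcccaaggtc

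Of these 4 windows, that of Tnp1 held TGACGTCA, and the other 3 did not hold these letters. The element is found in 1.91% of all 27457 promoter windows of the table and in 2 of the 82 matched windows of the 100 brightest genes (2.44%). Over the 11950 windows of named genes the share is 2.46%. TATAAA is found in 14.3% of all windows, in 11.7% of those of named genes and in 18.3% of the 82 of the brightest. A match is a description of letters and not a site of binding.

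The 10 most variable genes fell into sets that moved together. All 45 pairs were tested by a two-sided permutation test of Pearson's r (100000 resamples, Benjamini-Hochberg over the pairs), a test chosen after seeing the data, and 16 passed at 0.05, of which 14 were positive. The smallest p the resamples can give is 1e-05. Fn1 and Prg4 had r = 0.963 and rho = 0.949 (adjusted permutation p 4.5e-05 and 6.4e-05, n = 20), and r = 0.934 without the 2 arrays farthest from the Fn1 median. Within replicates 1 to 10 and 11 to 20 their r was 0.937 and 0.972. Spata19 and Tnp1 had r = 0.945 and rho = 0.907 (adjusted permutation p 4.5e-05 and 6.4e-05, n = 20), and 0.911 without the 2 farthest arrays. Within the 2 sets of replicates their r was 0.923 and 0.959. Spata19 and Ms4a14 had r = 0.917 and rho = 0.880. Stap1 and Defb43 had r = 0.780, and the 2 negative pairs were Stap1 with Ccl24 at -0.562 and with Slpi at -0.538. By Spearman's rho 19 pairs passed and 5 were negative. Beside Ccl24 and Slpi these were Stap1 with Fn1 at rho = -0.678, with Prg4 at -0.638 and with Mcpt1l1 at -0.546 (adjusted permutation p 0.00498, 0.00881 and 0.0339). No pair of Spata19, Ms4a14 or Tnp1 with Fn1, Prg4, Slpi, Ccl24 or Mcpt1l1 passed by either coefficient, and their r ran from -0.396 to -0.00259. Their r ran from -0.265 to 0.0813 in replicates 1 to 10, from -0.759 to -0.162 in replicates 11 to 20, and from -0.551 to 0.106 without the 2 arrays farthest from the median of the more variable gene of each pair.

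Many germ cell transcripts moved across the control arrays with Akap4, the scaffold protein of the fibrous sheath. Akap4 itself ran from 8.63 on replicate 12 to 11.06 on replicate 9, with a median of 10.01 (mean 10.00 ± 0.62 SD, n = 20). The slope of each probe set on the Akap4 level was tested with limma over 29213 probe sets, and 853 passed an adjusted p of 0.05, which is 2.92% of those tested. The slope was positive for 825 (2.82%) and negative for 28 (0.0958%). By named gene, 536 were positive and 11 negative. In replicates 1 to 10 alone 203 probe sets passed and in replicates 11 to 20 alone 610.

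The closest to Akap4 was Ubqlnl, a germ cell ubiquilin, with r = 0.986 and rho = 0.986 (limma adjusted p 5.9e-12), and 0.978 without the 2 arrays farthest from the Akap4 median. The transcription factor gene Stat4 had r = 0.984 and rho = 0.976 (limma adjusted p 4.9e-12). Then came the actin-like gene Actl11 at r = 0.982, Crisp2 at 0.980, the ubiquitin ligase gene Marchf10 at 0.976, Dzip1 at 0.973, Iqcf3 at 0.973, Lrrc8b at 0.972, Dnajb3 at 0.969 and Bpifa3 at 0.968. Within either set of replicates the r of these 10 genes ran from 0.929 to 0.991. The slope of Ubqlnl was 0.84 ± 0.04 (SE) and that of Stat4 0.98 ± 0.05 (SE), in log2 units per log2 unit of Akap4.

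The 11 named genes with a negative slope had a median level of 5.92. The strongest was Vom1r83, a vomeronasal receptor gene at 4.98, with r = -0.767. The odorant receptor genes Or6c33b, Or4k48 and Or2ak5b followed with r of -0.713, -0.698 and -0.694, and Gng5, a G protein subunit, had -0.705.

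List by list, the counts stand against the 2.82% of all probe sets with a positive slope. Among the 100 brightest named genes 29 passed with a positive slope. Of spermatid chromatin genes 9 of 12 passed, among them Prm1 with r = 0.757, Tnp2 with 0.680 and Tnp1 with 0.807. Of energy metabolism genes 10 of 15 passed, with Gapdhs at 0.939 and Hk1 at 0.684, while Tpi1 did not pass at 0.305. Of spermatid regulators 14 of 25 passed, with Spata3 at 0.935 and Spata6 at 0.947. Of tail genes 9 of 22 passed, of acrosome genes 8 of 19, of channels and motility signalling 5 of 12, with Atp1a4 at 0.950, and of ubiquitin genes 5 of 13. No member of these 7 lists passed with a negative slope, also under quantile normalization and median centring.

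Members of the same structure did not all pass with Akap4. Smcp and Odf1 had r of 0.501 and 0.410 (limma adjusted p 0.498 and 0.617), and Oaz3 had 0.537 (limma adjusted p 0.174). The SDs of Smcp and Odf1 were only 0.10 and 0.09, and a high r need not pass at so small a spread. In the Dcn fit given below Odf1 had r = 0.781 and did not pass (limma adjusted p 0.0846). Oaz3 passed there at 0.682 (limma adjusted p 0.0288). Whether the small spread kept Smcp and Odf1 from passing with Akap4 was not tested. Tcp11 at 0.885 and Spata18 at 0.850 passed. Of the first 30 genes 7 passed, and these were Prm1, Iqcf3, Gsg1, C7h12orf54, Tcp11, Rps29 and Spata18. More of the first 30, 17, passed in the Cd74 fit given below, each with a positive slope. In the acrosome list the median r between members above the 75th percentile was 0.24, and pairs ran from -0.64 to 0.96. Spa17 passed with Akap4 at 0.941, whereas Zpbp had 0.539 (limma adjusted p 0.154).

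Outside these 7 lists, 2 of 17 meiotic genes passed with Akap4, Mael and Stag3, with r of 0.877 and 0.677, and 1 of 67 ribosomal protein genes, Rps29 at 0.650. The Rps29 call was lost after quantile normalization, without replicates 18 and 12, and without replicate 4, 9, 12, 14 or 17 alone. The meiotic count was 1 without replicate 4, 12 or 13. Of leukocyte genes 1 of 34 passed, Aif1 at 0.756, of erythrocyte genes 1 of 14, Hemgn at 0.832, and of principal cell genes 1 of 26, Cst8 at 0.846, which germ cells also make. Of Leydig cell genes 1 of 7 passed, Lhcgr at 0.812, and of other-organ genes 1 of 36, Serpina1 at 0.903. No respiratory chain, basal or clear cell, stromal, Sertoli cell or immediate early gene of the lists passed.

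**Figure D4:**
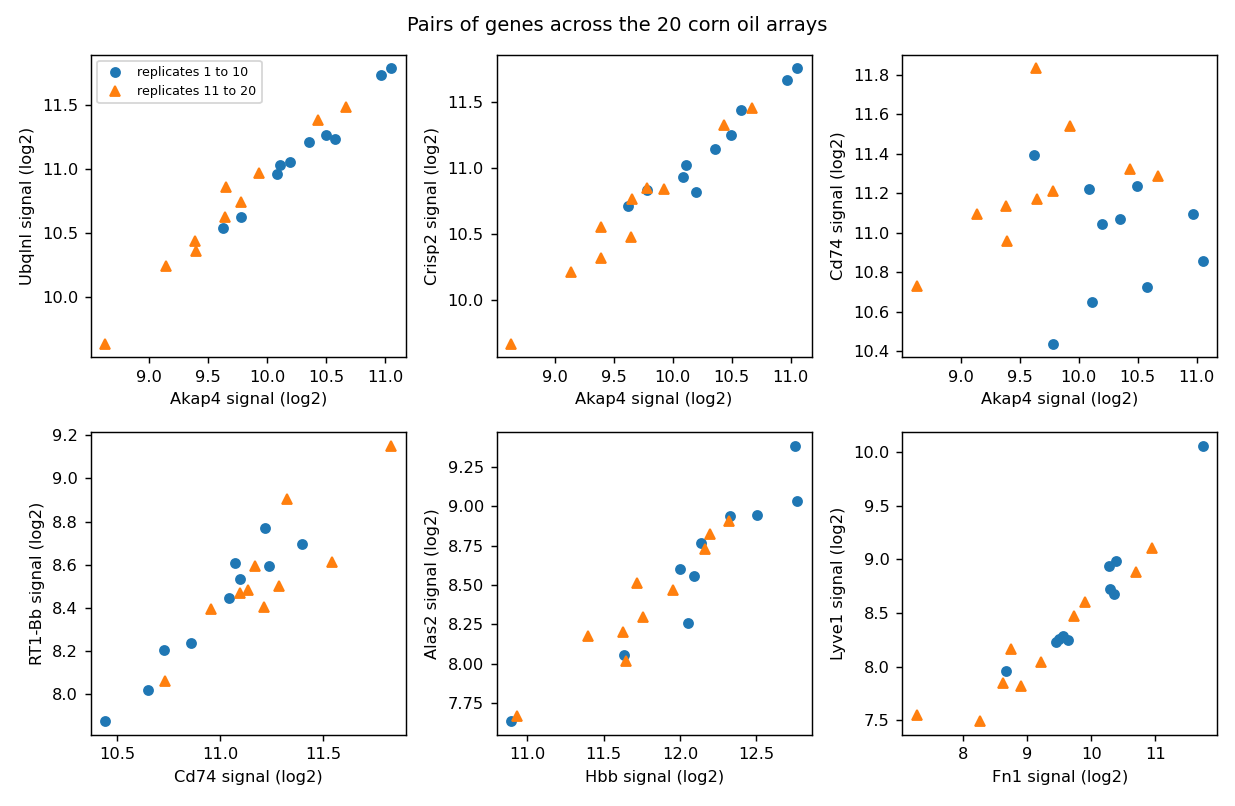
Log2 signal of 6 pairs of genes, 1 gene on each axis, with 1 point per corn oil array, circles for replicates 1 to 10 and triangles for replicates 11 to 20. Ubqlnl and Crisp2 rise with Akap4 (r = 0.986 and 0.980), Cd74 has r = 0.00555 with it, and RT1-Bb with Cd74, Alas2 with Hbb and Lyve1 with Fn1 have r of 0.923, 0.951 and 0.948.

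Class II histocompatibility genes and genes of general use were among those closest to Cd74. The limma fit on Cd74 called 5795 of 29213 probe sets (19.8%), 2462 with a positive slope (8.43%) and 3333 with a negative slope (11.4%). The class II genes RT1-Bb at r = 0.923 and RT1-Da at 0.904 and the T cell gene Cd7 at 0.896 were among the 10 closest. The fatty acid elongase Elovl5 was first at r = 0.940 and rho = 0.952 (limma adjusted p 2.2e-05), with Ctcf at 0.922, Ptbp3 at 0.915, Smad4 at 0.907, Ep300 at 0.906, Stk3 at 0.905 and Rad23b at 0.901. Of the other leukocyte genes 14 of 33 passed with a positive slope and none with a negative one. This count was 6 without replicate 18, 7 without replicates 18 and 12, and 10 after quantile normalization. Of the 100 brightest named genes 43 passed with a positive slope, and leukocyte genes were not compared with genes of like level. Ccl5 had r = 0.692, while Lyz2 had 0.188 and did not pass.

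The Cd74 level also moved with the scale of the arrays. It fell with the array median, r = -0.856 and rho = -0.826 (adjusted permutation p 6.0e-05 and 3.6e-04, 6 genes tested, n = 20). Without the 2 arrays farthest from the median of the x axis r was -0.803, and within the 2 sets of replicates -0.814 and -0.925. The part of this in the Cd74 fit was not tested. With each array centred on its median 3284 slopes were positive and 1494 negative, and after quantile normalization 3063 and 2759. The named genes with a negative slope had a median level of 6.61, and those with a positive slope 7.55. The strongest negative ones were Mog at r = -0.886, A630001G21Rikl at -0.869, Itln1 at -0.862, Tnfsf4 at -0.852 and Scrn1 at -0.850. Without replicate 18, the array with the highest Cd74 level, 2554 probe sets passed, and without replicates 18 and 12 together 1794. In replicates 1 to 10 alone 317 passed and in replicates 11 to 20 alone 5472.

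Other lists in the Cd74 fit stand against the 8.43% positive and 11.4% negative of all probe sets. These shares are not those of bright genes. Among the 100 brightest named genes 43 passed with a positive slope and 5 with a negative one. The lists were not compared with genes of like level. Ribosomal protein genes had 22 positive and 3 negative of 67, and the negative count was 11 after quantile normalization and 1 after centring. The positive count was 14 without replicate 3. Respiratory chain genes had 14 positive and 1 negative of 48. The positive count was 8 without replicate 16, 10 without replicate 18, 4 without replicates 18 and 12, and 20 without replicate 7. Ubiquitin genes had 4 of 13 positive, and with 1 array left out 4 to 6. Of principal cell genes 3 of 26 were positive, Cd52, Npc2 and Adam7 with r of 0.791, 0.677 and 0.686, and 1 was negative, Adam28 at -0.576. Of basal and clear cell genes 2 of 14 were positive, Foxi1 at 0.679 and Atp6v0d2 at 0.594, and 2 were negative, the basal keratins Krt14 at -0.610 and Krt15 at -0.582. The negative calls of both lists were lost after median centring and without replicates 18 and 12, and with 1 array left out they ran from 0 to 3 and from 0 to 3. Of spermatid chromatin genes 1 of 12 passed, H3f4 at 0.530, and with 1 array left out this count ran from 0 to 2. The count was 2 of 15 for energy metabolism and 1 of 23 for tail genes, Tekt5 at 0.770. Other-organ genes had 9 of 36 negative and none positive, and 4 of them were negative after centring, and 2 without replicate 18. Acrosome genes had 4 of 19 negative and 1 positive, stromal genes 3 of 20 negative and none positive, and erythrocyte genes 3 of 14 negative and 1 positive. After centring the negative counts were 2, 0 and 1.

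Few probe sets passed the adjusted threshold with Hbb. The limma fit on Hbb called 23 of 29213 probe sets (0.0787%), 22 with a positive slope (0.0753%) and 1 with a negative one (0.00342%), and 3671 had an unadjusted p under 0.05. With no probe set tied, 1461 would be expected under 0.05, as a guide only, since probe sets are not independent. Hbb-b1 had r = 0.955 and rho = 0.931 (limma adjusted p 3.6e-08), but it is a close copy of Hbb and their probes may read the same transcripts. Alas2 had r = 0.951 and rho = 0.961 (limma adjusted p 7.7e-08), and r = 0.919 without the 2 arrays farthest from the Hbb median. Fech, which inserts the iron of haem, had r = 0.848. The others of the 10 closest were Cdc25b at 0.919, Jup at 0.856, Fgr at 0.835, Ybx3 at 0.831, Ripor2 at 0.827, Rbm38 at 0.812 and Rnf10 at 0.810. Of the other erythrocyte genes 2 of 13 passed, Hbb-b1 and Alas2. Without replicate 17, 4 probe sets passed, without replicate 2 there were 15, and without replicate 9 there were 37.

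Dcn, the small proteoglycan decorin of connective tissue, ranged from 9.06 on replicate 7 to 10.89 on replicate 2, and 1 of the other stromal genes passed with it. The limma fit on Dcn called 553 of 29213 probe sets (1.89%), 481 positive (1.65%) and 72 negative (0.246%). Its closest genes were Ogn, another small proteoglycan, at r = 0.854 and rho = 0.811 (limma adjusted p 0.00473), Lyrm1 at 0.844, Tspan6 at 0.841 and Reep6 at 0.840. Arih2, Cdc14a, Bcl2l14, Ubn2, Rmnd1 and Zcchc2 followed at 0.823 to 0.837. Of stromal genes 1 of 19 passed, Vim at 0.679, and none did without replicate 2 or 17. Other lists also had positive calls, 3 of 23 tail genes, 3 of 25 spermatid regulators, 2 of 15 energy metabolism genes and 2 of 13 ubiquitin genes. Chromatin had 1 of 12, acrosome 1 of 19, leukocytes 2 of 34 and ribosomal proteins 2 of 67. All of these calls were lost without replicate 17. Of the first 30 genes 10 passed, among them Reep6, Oaz3 at 0.682, Prr30 at 0.780, Dnajb4 at 0.757 and Tpgs2 at 0.822. Of the 100 brightest named genes 25 passed, each with a positive slope. The strongest negative slopes were those of Fam162a at -0.863, Col6a4 at -0.808, Trim45 at -0.798, Grid1 at -0.755 and Or6b2 at -0.753.

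The Dcn set rested on few arrays. Without the 2 arrays farthest from the Dcn median, replicates 7 and 17, the r of Reep6 was 0.658. Without replicate 17, 41 probe sets passed, and without replicate 7, 160. In replicates 11 to 20 alone limma called 0, with 2286 at an unadjusted p under 0.05. The Dcn level fell with the array median at r = -0.562 (adjusted permutation p 0.0276), while rho = -0.495 did not pass (adjusted permutation p 0.0839), and the part of this in the Dcn fit was not tested.

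Fn1, the most variable gene, was added as a reference after the data were seen. The limma fit on Fn1 called 90 of 29213 probe sets (0.308%), each with a positive slope. Beside Prg4 at r = 0.963 and Slpi at 0.946 they included Plxdc2 at 0.957 and the hyaluronan receptor gene Lyve1 at 0.948 with rho = 0.968 (limma adjusted p 3.6e-08). Tgfb2 had 0.942, the transferrin gene Tf 0.937, the complement factor gene Cfp 0.926, the clotting factor gene F5 0.913, Enpp3 0.907 and Cybb, the catalytic subunit of the phagocyte oxidase, 0.900. Of leukocyte genes 4 of 34 passed, and these were Lyz2 at 0.778, Cybb, Cd68 at 0.754 and Itgam at 0.883, and without replicate 10 there were 2. The macrophage gene Aif1 had r = -0.254 and did not pass. Of immediate early genes 4 of 22 passed, Dusp1 at 0.779, Egr1 at 0.812, Zfp36 at 0.762 and Jun at 0.758, and this count was 1 without replicate 10 and 2 without replicate 17. Fn1 was lowest on replicate 17 and highest on replicate 10, and without replicate 10 43 probe sets passed. The class II gene RT1-Bb had r = -0.235 with Fn1 and did not pass.

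The epididymal principal cell gene Crisp1, whose protein coats sperm in the duct, ran from 6.58 to 8.44 with a median of 7.31. The limma fit on Crisp1 called 0 of 29213 probe sets (0.00%), with 1616 at an unadjusted p under 0.05, against 1461 expected with none tied. Crisp1 was highest on replicates 8, 20 and 5, at 8.44, 8.37 and 8.35. Some other principal cell genes peaked on replicate 20, and they were named after their values were seen. On replicate 20, Gpx5, an epididymal glutathione peroxidase, stood at 10.20, against 8.24 on replicate 10 and at most 7.39 on the other 18. Lcn5, Rnase10 and Spag11b also peaked on replicate 20, at 8.75, 8.42 and 8.58, and their medians were 6.82, 6.67 and 7.36. The mean level of the principal cell list ran from 7.00 to 7.78 over the arrays, with a median of 7.10.

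The reference genes of different cell types were then set against each other. None of the 10 pairs of Akap4, Cd74, Hbb, Dcn and Crisp1 passed the permutation test with Benjamini-Hochberg adjustment. The closest was Cd74 with Dcn at r = 0.490 and rho = 0.499 (unadjusted permutation p 0.0286 and 0.0262, adjusted 0.286 and 0.262, n = 20). Their r was 0.481 without the 2 arrays farthest from the Cd74 median, and 0.732 and 0.371 within the 2 sets of replicates. Akap4 and Cd74 had r = 0.00555 and rho = -0.0436 (unadjusted permutation p 0.981 and 0.858), with r = -0.0188 in replicates 1 to 10 and 0.546 in replicates 11 to 20.

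Over pairs of list members above the 75th percentile, the median r was 0.77 within energy metabolism, 0.76 within spermatid chromatin and 0.65 within the sperm tail. Between chromatin and energy metabolism it was 0.77 and 90 of 90 pairs were above 0, and between chromatin and tail it was 0.68 with 99 of 99 above 0. Over all pairs of named genes above the 75th percentile the median r was 0.06, with 55.7% above 0. Leukocyte genes had a median r of 0.49 among themselves, 0.38 with erythrocyte genes and from -0.02 to 0.19 with the 7 germ cell lists. Erythrocyte genes had 0.57 among themselves and from 0.17 to 0.36 with the germ cell lists. Over all measured members, bright or not, the medians within lists were lower, at 0.62 for energy metabolism, 0.59 for chromatin, 0.38 for the tail, 0.26 for leukocytes and 0.17 for erythrocytes (59 of 91 pairs above 0). Over all pairs of named genes the median was 0.0050. All of these pairs share the same 20 arrays, so the medians are descriptions.

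**Figure D5:**
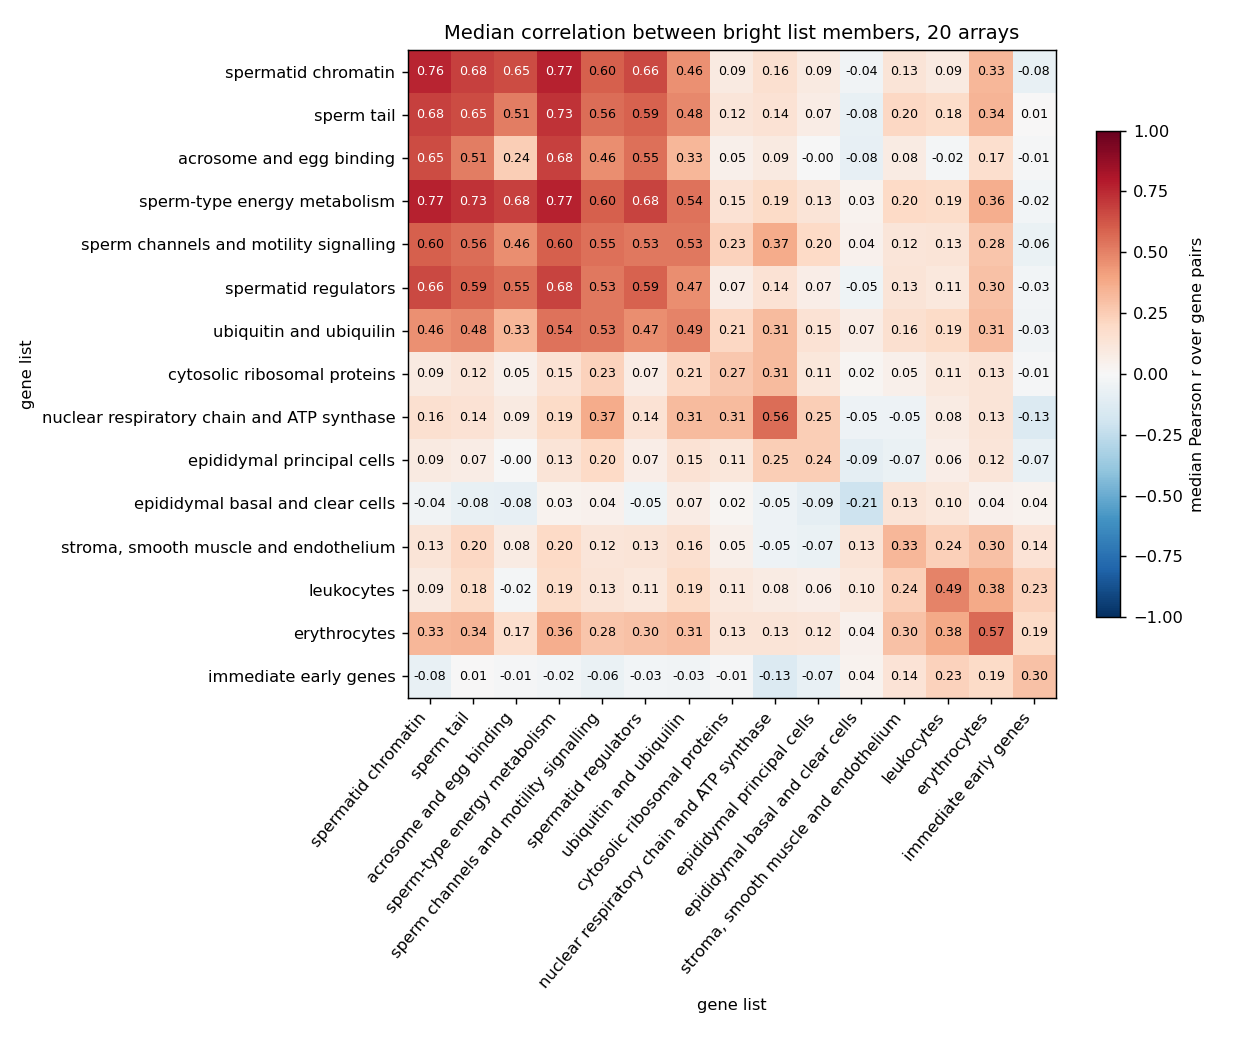
Median Pearson r over pairs of list members above the 75th percentile across the 20 corn oil arrays, with list names on both axes, within lists on the diagonal and between lists elsewhere. Spermatid chromatin and energy metabolism have 0.77 between them, while leukocyte genes have 0.49 among themselves and at most 0.19 with a germ cell list.

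The titles of replicates 1 to 10 and 11 to 20 are spelled differently in the labels, and the sets were compared for that reason. Between them limma called 0 of 29214 probe sets (0.00%), with 1746 at an unadjusted p under 0.05, against 1461 expected with no difference. That does not show the sets to be alike. Picked after their values were seen, Tcp11 had means of 11.97 in replicates 1 to 10 and 11.36 in replicates 11 to 20. Iqcf3 had 12.51 and 11.96, and Serpina16 went the other way with 12.00 and 12.58. No source used here says whether they were processed apart.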

How the data were processed

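RNA of sperm was hybridised to 1-colour arrays, and the authors deposited 1 table of values. Its unit was taken as log2 from the values themselves, which run from 2.63 to 14.69 on these arrays, as deposited. Limma is named per the submitters' processing notes; how background was corrected and how values were normalized and summarised per probe set is not given. Precision is limited by the array number.

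The values were used as deposited. Of the probe sets, 15310 had 1 gene symbol, 323 several and 13581 none here. Ranks used the mean of the brightest probe set of a gene. Each probe set was regressed on a reference gene (Akap4, Cd74, Hbb, Dcn, Crisp1 and, added after seeing the data, Fn1) with limma 3.58.1 in R 4.3.3, Benjamini-Hochberg adjusted over all probe sets, threshold 0.05. The fits share the arrays. Single correlations used 100000 permutations (Python 3.11.15, scipy 1.17.1).

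Named genes were the 30 brightest, the 3 brightest of each list, the 10 most and 5 least variable above the 75th percentile, and the 10 closest positive and 5 closest negative called genes of each fit; others were chosen after their values were seen. The members and lists were chosen with earlier results of these data known. Alternatives were quantile normalization, median centring, arrays left out, the sets of replicates, level filters, 1 probe set per gene and another variance prior. Promoters came from RefSeq (GRCr8).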

Additional observations from a re-analysis of the deposited data

How the results depend on the processing

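Among the summary results, 108 of the values under other settings stayed within 1.5 times the reported count or within the spread, and 14 did not, leaving aside single arrays left out. All correlations between reference genes counted among the 108, though some differed widely. Akap4 with Cd74 had r = 0.00555 as reported and 0.546 in replicates 11 to 20 alone. In replicates 1 to 10 alone the called probe sets numbered 203 for Akap4, 317 for Cd74, 3 for Hbb, 143 for Dcn and 21 for Fn1. In replicates 11 to 20 alone they numbered 610 for Akap4, 5472 for Cd74, 1 for Hbb, 0 for Dcn and 13 for Fn1. Both sets hold fewer arrays than the group and are of equal size. Why the Cd74 count differed between them was not tested. Without replicates 18 and 12 the Cd74 count was 1794, and with 1 probe set per gene, where fewer are tested, 3572. Crisp1 had 4 after median centring and 3 with 1 probe set per gene; the cause was not tested. Within 1 log2 unit of the highest value lay 24 probe sets and within 0.25 lay 1. With 1 array left out in turn the counts ran from 641 to 956 for Akap4, 2554 to 6171 for Cd74, 4 to 37 for Hbb, 41 to 779 for Dcn, 0 to 2 for Crisp1 and 43 to 118 for Fn1. With the mean of a gene's probe sets, Ftl1 stood at 11.71, Gapdh at 11.61, Rpl41 at 10.78 and Mt2A at 11.08, and 93 of the 100 brightest genes were shared; no other tried setting left fewer than 96. No paired analysis was possible because 1 group is described and each replicate number occurs once in it. Saturation at the top of the scale and signal over background could not be read from the values used here.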
